A study of Mus musculus with 2 samples.

Results

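The 8 genes described here carry or read out lactogenic signalling in the islet. They are the receptor genes Prlr and Ghr, the transcription factor genes Stat5a and Stat5b, the target genes Socs2 and Cish, and the tryptophan hydroxylase genes Tph1 and Tph2. They were chosen by name, and all 8 were found among the 31053 genes of the deposited tables. Droplet-based single-cell RNA sequencing was performed on isolated pancreatic islets of male C57/B6 mice aged 16 weeks. One library (WT) came from wild-type mice, for which the labels name no diet. The other (HFD) came from mice that received a diet with 60% of its energy as fat for 10 weeks, beginning at 6 weeks of age. Each library pooled the islets of 4 mice. There was therefore 1 library per group, diet, preparation and library cannot be told apart, and no p-value could be computed. All intervals are 95% intervals of counting error only. The question was whether receptor, targets and Tph genes differed together between the diets.

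Prolactin and placental lactogens bind the prolactin receptor, and growth hormone binds the related growth hormone receptor. Both receptors activate the kinase JAK2, which phosphorylates the transcription factors STAT5A and STAT5B. STAT5 then switches on Socs2 and Cish, whose products dampen the same receptors. In pregnancy this pathway expands the β cell mass, and Tph1, which encodes the rate-limiting enzyme of serotonin synthesis, is its best-known induced gene in mouse β cells. Tph2 encodes the enzyme used by neurons.

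In the mouse genome (GRCm38, GENCODE vM21) both receptor genes are on chromosome 15, Prlr at 10177238 to 10349180 on the plus strand and Ghr at 3317760 to 3583492 on the minus strand. Stat5b (chromosome 11, 100780731 to 100850724, minus strand) and Stat5a (chromosome 11, 100859351 to 100885169, plus strand) are neighbours separated by 8626 bases. Stat5a overlaps Stat3 on the other strand. Socs2 lies on chromosome 10 from 95385362 to 95417180 on the minus strand, and Cish on chromosome 9 from 107296026 to 107302784 on the plus strand. Tph1 lies on chromosome 7 from 46644641 to 46672537 and Tph2 on chromosome 10 from 115078641 to 115185022, both on the minus strand.

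Promoter windows of RefSeq (GRCm38.p6; 250 bases before to 50 bases after a start site) were searched for TTCNNNGAA, the palindromic core that STAT5 binds. The motif reads the same on both strands, so 1 search covers both. There were 13 windows for 7 of the 8 genes, none of them for Socs2. The motif was found in 2 of the 13 windows, 1 of Prlr and 1 of Cish, against 8.30% of all 32851 windows. The Cish window held it at 2 places that begin 1 and 12 bases into the transcript, and 0.457% of all windows held 2 or more. The Prlr window, 1 of 3 for this gene, held it at 1 place that begins 110 bases before its start site. The stretches of 30 bases around these matches are shown, on the plus strand and with the motif in capitals, since they hold all the matches found in the windows searched for these genes. The Prlr stretch is at chr15:10223785-10223814 and the Cish stretch at chr9:107296654-107296683, inside the span of the Cish gene in GENCODE.
Prlr: ggcaaaatgagTTCTAGGAAtaagggatat
Cish: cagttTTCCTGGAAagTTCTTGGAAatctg
These matches are a description of letters, and binding was not measured in these data.

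The WT library held 73843674 UMIs over 3895 barcodes and the HFD library 94375138 UMIs over 8951 barcodes, where a UMI (unique molecular identifier) marks 1 captured transcript. Barcodes with at least 500 genes and at most 20% mitochondrial UMIs were kept without a maximum of UMIs, and likely doublets were left out, which gave 2498 WT cells and 6672 HFD cells. The libraries shared 9 barcodes, 3 of them among kept cells. Clusters were named from marker genes, and 1647 WT cells and 5495 HFD cells were β-like. These β-like cells differed in depth, with a median of 30414 UMIs in WT and 11801 in HFD, and they fell into different clusters, since clusters 0, 1 and 6 held nearly all of the WT cells and clusters 8, 12, 13, 17, 18, 19 and 21 nearly all of the HFD cells. Levels are UMIs of a gene per 1000000 UMIs of the same cells (CPM).

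Prlr, the prolactin receptor gene, was a gene of β-like cells in both libraries. It had 14414 UMIs in WT β-like cells, or 258 CPM (254 to 262), and 15465 UMIs in HFD β-like cells, or 210 CPM (207 to 214). δ-like cells held 21.7 CPM (WT) and 21.2 CPM (HFD) of it, so the β-like level was 11.9 times the δ-like level in WT (6.64 to 23.8, from 11 δ-like UMIs, and 47.5 with at most 10% mitochondrial UMIs, which left 2 of them) and 9.91 times in HFD (5.03 to 22.9, from 8 UMIs). α-like cells held 1.94 CPM and 7.94 CPM, from 1 and 6 UMIs. The non-endocrine classes together held 8.33 CPM and 13.0 CPM. Outside β-like cells Prlr thus rested on few UMIs in every named class. The cells of unnamed clusters, most of which were rich in insulin, held 205 CPM (1580 UMIs) and 175 CPM (1008 UMIs).

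Insulin RNA, which β cells hold in great excess, was also found in the other classes, and it was used there as a measure of free RNA. Prlr stood at 4.20 UMIs per 10000 insulin UMIs in WT β-like cells. In pericyte-like cells of the same library it stood at 2.81 (1.45 to 4.91) and in duct-like cells at 5.19 (2.37 to 9.86), intervals that include the β-like value. δ-like cells stood above it in WT, at 13.0 (6.50 to 23.3) against 4.20. In HFD, the δ-like value was 7.33 (3.17 to 14.4), with an interval that includes the 3.67 of β-like cells. Prlr in δ-like cells was thus above the insulin proportion in 1 of the 2 libraries, on 11 UMIs that sat in 5 cells and of which 2 were left with at most 10% mitochondrial UMIs.

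**Figure D1:**
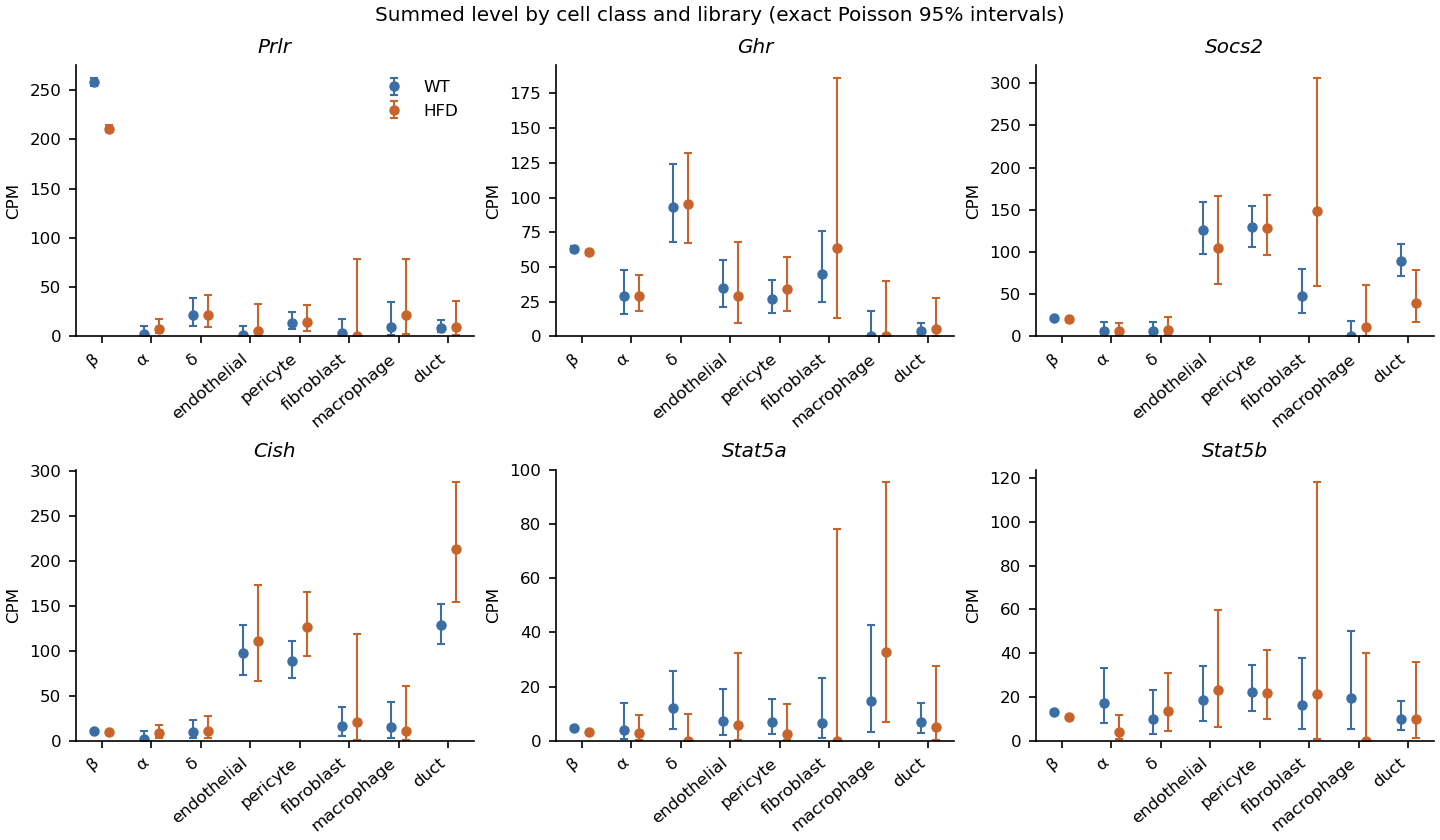
Levels in CPM of 6 genes (1 panel each) in the 8 cell classes with at least 20 cells in each library, WT in blue and HFD in orange, with exact Poisson 95% intervals. Prlr is high in β-like cells only among these classes (258 CPM in WT and 210 CPM in HFD), while Socs2 and Cish are highest in endothelial-like, pericyte-like and duct-like cells, apart from Socs2 in HFD fibroblast-like cells, which rests on 7 UMIs.

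Ghr, the growth hormone receptor gene, was spread more widely. WT β-like cells held 3517 Ghr UMIs (62.9 CPM) and HFD β-like cells 4451 (60.6 CPM). The δ-like level was higher, at 92.9 CPM (68.2 to 124, 47 UMIs) in WT and 95.6 CPM (67.0 to 132, 36 UMIs) in HFD, and the intervals of both libraries lay above the β-like ones. α-like cells had 29.0 CPM and 29.1 CPM, less than β-like cells in each library. Among non-endocrine cells, endothelial-like cells had 35.1 CPM and 29.1 CPM and fibroblast-like cells 45.1 CPM and 63.7 CPM, the last from 3 UMIs. Macrophage-like cells held 0 Ghr UMIs in both libraries, which allows up to 14.7 CPM in WT and 32.7 CPM in HFD. Per 10000 insulin UMIs, Ghr stood at 1.02 in WT β-like cells and at 55.6 (40.9 to 74.0) in WT δ-like cells, and at 1.06 and 33.0 (23.1 to 45.7) in HFD, so Ghr in δ-like cells was far above the insulin proportion. The interval in WT duct-like cells (0.629 to 5.91) includes the β-like value.

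Over 16 profiles (8 classes in 2 libraries), the pattern of Prlr was most like that of G6pc2, Ins1, Ero1lb, Ins2 and Pdyn, with a Pearson correlation of log2(CPM + 1) between 0.909 for G6pc2 and 0.854 for Pdyn. The pattern of Ghr was most like that of Adcy9 (0.941), followed by Selenom, Armcx2, Pam and Dnajc3 (0.908). These are descriptions over profiles that share libraries and depth.

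Between the diets, the 2 receptor genes differed in degree. The ratio of the HFD to the WT level in β-like cells was 0.816 (0.798 to 0.835) for Prlr, a log2 ratio of -0.29. For Ghr the ratio was 0.963 (0.921 to 1.01), and its interval includes 1. In the same cells the median log2 ratio was 0.00 over all genes with at least 50 UMIs, but 0.20 over genes of at least 100 CPM. Relative to that shift of 0.20 the log2 ratio was -0.49 for Prlr and -0.25 for Ghr, and with it the ratio of Ghr was 0.839 (0.803 to 0.877). Among the 12070 genes with at least 50 UMIs and with UMIs in both libraries, 14.5% had a lower ratio than Prlr and 41.3% a lower ratio than Ghr. In δ-like cells the ratio for Ghr was 1.03 (0.648 to 1.62).

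Prlr was lower in HFD in each of 5 ranges of depth, with intervals that separate above 15000 UMIs and overlap below. In β-like cells of 5000 to 10000 UMIs it was 273 CPM in WT (32 cells) and 231 CPM in HFD (1838 cells). In cells of 15000 to 30000 UMIs it was 253 CPM in WT and 206 CPM in HFD, and in cells above 30000 UMIs it was 260 CPM and 175 CPM. When each cell was thinned to 2000 UMIs, which left out 2 WT cells and 10 HFD cells, Prlr was found in 40.1% of WT β-like cells (37.7 to 42.5) and in 33.7% of HFD β-like cells (32.4 to 34.9). Before thinning these shares were 97.6% and 87.3%. Endothelial-like cells, taken here as a measure of free RNA, had a Prlr UMI in 1 of 93 WT cells after thinning, or 1.08%. The HFD count was 0 of 38 (up to 7.89% is allowed), and the median depth of these cells before thinning was 4251 UMIs in WT and 1982 UMIs in HFD. Ghr was found in 11.7% of WT and 12.4% of HFD β-like cells after thinning, with overlapping intervals.

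Stat5a and Stat5b, which encode the transcription factors downstream of both receptors, were sparse in β-like cells. Stat5a had 268 UMIs in WT, or 4.79 CPM, against 239 UMIs in HFD, or 3.25 CPM, and its ratio was 0.678 (0.567 to 0.811). Stat5b had 740 and 780 UMIs, or 13.2 CPM and 10.6 CPM, a ratio of 0.802 (0.724 to 0.888). Both were lower in HFD, and the 2 intervals overlap, so a difference between the paralogues was not detectable at this depth. The paralogues are close in sequence, so reads from stretches they share cannot be assigned with certainty. Relative to the median shift of genes of at least 100 CPM, a level far above both genes, the ratio of Stat5a was 0.591, past 1.5-fold. That of Stat5b was 0.699. At the thinned depth the shares were 0.851% and 0.784% for Stat5a and 2.98% and 2.26% for Stat5b, with overlapping intervals in each case. At 5000 UMIs per cell, Stat5a was found in 3.02% of WT cells (2.24 to 3.97) and 1.56% of HFD cells (1.24 to 1.93), intervals that do not overlap, and Stat5b in 6.16% and 5.69%, whose intervals do. Outside β-like cells, Stat5a had 13 UMIs in HFD T cell-like cells (40.1 CPM). The 13 WT cells of that class held 0, which allows up to 108 CPM, so no difference was detectable.

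Socs2 and Cish, the feedback targets of the receptors, were not genes of β-like cells in particular. β-like cells held 1239 Socs2 UMIs in WT, or 22.2 CPM, and 1488 in HFD, or 20.2 CPM. Endothelial-like cells had 126 CPM and 105 CPM, and pericyte-like cells, whose leading genes include the endothelial genes Flt1, Esm1 and Kdr, had 129 CPM and 128 CPM. The other endocrine cells were low, as α-like cells had 5.81 CPM and 6.61 CPM and δ-like cells 5.93 CPM and 7.97 CPM. Socs2 in β-like cells was thus 17.7% of the endothelial-like level in WT and 19.3% in HFD. The summed endothelial markers in β-like cells were 0.0117% and 0.0162% of their level in endothelial-like cells.

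β-like cells held 621 Cish UMIs in WT, or 11.1 CPM, and 728 in HFD, or 9.91 CPM. Endothelial-like cells had 97.8 CPM and 111 CPM, and pericyte-like cells 88.8 CPM and 126 CPM. The highest levels in classes with at least 20 cells in each library were in duct-like cells, at 128 CPM (132 UMIs) for WT and 213 CPM (43 UMIs) for HFD. Socs2 and Cish were therefore high in the same 3 non-endocrine classes, in which Prlr did not exceed 14.5 CPM and Ghr did not exceed 35.1 CPM.

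Between the diets, both targets were close to the WT level when β-like cells of all depths were summed. The ratio was 0.914 (0.847 to 0.986) for Socs2 and 0.892 (0.80 to 0.994) for Cish, and 30.6% and 25.9% of genes had lower ratios. Relative to the median shift of genes of at least 100 CPM, a level far above both targets, these ratios were 0.796 and 0.777. After thinning, Socs2 was found in 3.95% of WT and 3.88% of HFD β-like cells, and Cish in 2.37% and 2.28%, with overlapping intervals. The direction for Cish depended on the depth of cells. With at most 15000 UMIs per cell, which left 118 WT β-like cells and 9 Cish UMIs in them, its ratio was 1.46 (0.761 to 3.21). In cells of 10000 to 30000 UMIs in both libraries, the ratios were 0.747 (0.632 to 0.886) for Cish and 0.722 (0.646 to 0.808) for Socs2. In cells of 15000 to 30000 UMIs, Socs2 was 27.2 CPM in WT and 18.6 CPM in HFD, and Cish 12.4 CPM and 8.85 CPM. Above 30000 UMIs, Socs2 was 20.1 CPM and 13.5 CPM, and Cish 10.7 CPM and 4.90 CPM. The WT and HFD intervals of both genes were separate in these 2 ranges and overlapped in those below 15000 UMIs. Within HFD, the Cish level was 21.6 CPM in β-like cells under 5000 UMIs and 4.90 CPM in those above 30000 UMIs, and the Socs2 level was 29.3 CPM and 13.5 CPM. Within WT, Cish was at 12.4 CPM between 15000 and 30000 UMIs and at 10.7 CPM above, with overlapping intervals. Socs2 was lower in the deeper of these WT ranges, at 27.2 CPM and 20.1 CPM, with separate intervals. WT β-like cells of at most 15000 UMIs held only 9 Cish UMIs and 28 Socs2 UMIs. Whether the targets declined over all depths in WT could therefore not be judged.

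**Figure D2:**
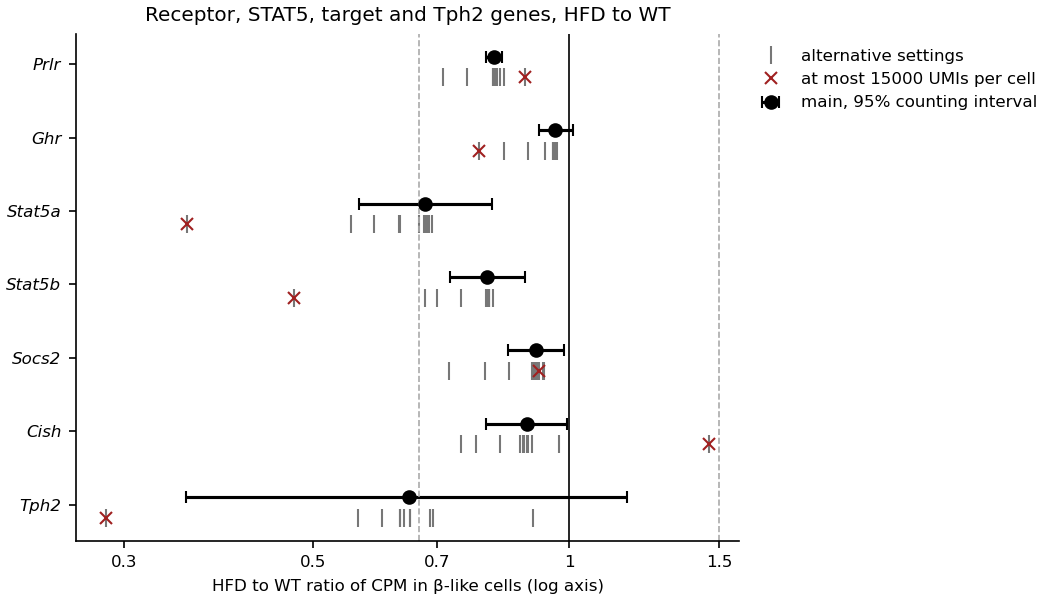
HFD to WT ratio of CPM in β-like cells on a log axis for 7 genes, with the 95% counting interval of the main value (black), the 11 alternative settings (grey ticks) and the setting of at most 15000 UMIs per cell (red crosses). All settings lie below 1 apart from Cish with at most 15000 UMIs, at 1.46.

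Among the 7 genes with at least 50 UMIs in β-like cells, 0 were past 1.5-fold higher in HFD and 1, Tph2, which had exactly 50, was past 1.5-fold lower. Of all 12071 genes with as many UMIs, 3.83% were past 1.5-fold higher and 4.58% past 1.5-fold lower, 8.41% in all. With median centring these shares were 2.29% and 10.0%, and with all insulin-rich clusters taken as β cells, 0 of the genes were past 1.5-fold. The 1 gene past 1.5-fold was Stat5a instead of Tph2 with doublets kept (0.666) and in cells of 10000 to 30000 UMIs (0.555). The median log2 ratio of the 7 genes was -0.29, beside 0.00 over all genes. All 7 ratios were below 1, but those of Ghr and Tph2 had intervals that include 1.

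Tph1 was close to absent. Among 55901761 UMIs of WT β-like cells 1 was of Tph1, or 0.0179 CPM, and among 73490251 UMIs of HFD β-like cells 0 were, which allows up to 0.0408 CPM. The other kept cells of both libraries held 0, and all barcodes of the deposited tables held 2 in WT and 0 in HFD. No ratio can be given. Tph2 had 27 UMIs in WT β-like cells (0.483 CPM) and 23 in HFD (0.313 CPM), never more than 1 in a cell, and its HFD to WT ratio of 0.648 had an interval from 0.355 to 1.17. WT δ-like cells held 2 Tph2 UMIs. After thinning, 0 of 1645 WT and 3 of 5485 HFD β-like cells had a Tph2 UMI. A difference in Tph genes was therefore not detectable at this depth.

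Genes of other steps of serotonin handling were measured too. Where 2 levels are given for a gene in the following, the first is WT and the second HFD. Of the 15 genes of synthesis, storage and breakdown, 12 had at least 50 UMIs in β-like cells, and 0 were past 1.5-fold in either direction, with a median log2 ratio of 0.03. Ddc, the decarboxylase that makes serotonin from 5-hydroxytryptophan, had 7693 and 12183 UMIs, or 138 CPM and 166 CPM, a ratio of 1.20 (1.17 to 1.24). Gch1, the first enzyme of synthesis of the hydroxylase cofactor tetrahydrobiopterin, stood at 126 CPM and 116 CPM, a ratio of 0.917 (0.889 to 0.947). Slc18a1, a vesicular monoamine transporter gene, stood at 5.53 CPM and 6.68 CPM, while its paralogue Slc18a2 had 0 UMIs in WT and 2 in HFD. Slc6a4, the serotonin reuptake transporter gene, had 1 UMI in WT and 0 in HFD. The 3 transporter genes were named after their values were seen. Of 14 serotonin receptor genes, 0 reached 50 UMIs and 11 had none. β-like cells thus held RNA of Ddc and Gch1 in both libraries, and almost none of the hydroxylase gene Tph1.

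Prl and Gh, the genes of the hormones, had 0 UMIs in β-like cells of both libraries. Of 17 other receptor genes that signal through STAT proteins, 8 reached 50 UMIs, and 0 were past 1.5-fold, with a median log2 ratio of -0.06. Il6ra, the interleukin 6 receptor gene, had 51.6 CPM and 40.5 CPM, a ratio of 0.784 (0.744 to 0.825), and Il6st, its signalling partner, had a ratio of 0.866 (0.785 to 0.955). Of 9 genes for Janus kinases and other STAT proteins, 8 reached 50 UMIs, and 0 were past 1.5-fold higher in HFD and 1 past 1.5-fold lower. Stat3 had a ratio of 0.752 (0.723 to 0.781) and Jak1 of 0.828 (0.787 to 0.871), and the median log2 ratio of the list was -0.34. Stat3 and Stat5a overlap on opposite strands, and how reads in the shared stretch were assigned was not tested.

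Of 18 other SOCS genes and negative regulators, 17 reached 50 UMIs and 1, Socs3, was past 1.5-fold lower. Socs3, the feedback gene of interleukin 6 type receptors, had 68.5 CPM and 23.3 CPM, a ratio of 0.339 (0.320 to 0.359), and between 0.296 and 0.382 in the 11 alternatives. It thus stood apart from Socs2 and Cish. Socs3 was also among the leading genes of cluster 0, which was mostly WT and was led by the immediate early genes Fos and Egr1, and the part of that cluster in the ratio was not tested. The phosphatase genes Ptpn11 (45.4 CPM and 42.4 CPM) and Ptpn1 (40.1 CPM and 39.0 CPM) had ratios of 0.933 and 0.972. The median log2 ratio of the list was -0.04.

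Of 26 islet genes that respond to prolactin or pregnancy, 24 reached 50 UMIs. Of these, 0 were past 1.5-fold higher in HFD and 6 past 1.5-fold lower, and the median log2 ratio was -0.39. The list was not split by the direction of the response, so these values give no direction of lactogenic signalling. Over all genes, 4.58% were past 1.5-fold lower and the median was 0.00. The 6 became 12 of 24 with median centring, where 10.0% of all genes were lower, and 11 of 22 in cells of 10000 to 30000 UMIs, where 10.8% were. Pim1, Myc, Irs2, Ehhadh and Fmo1 were among the 6 genes. Pim1, a kinase gene induced by STAT5, stood at 10.1 CPM and 4.84 CPM, a ratio of 0.480 (0.419 to 0.549). Irs2, the insulin receptor substrate gene, stood at 71.3 CPM and 36.2 CPM, a ratio of 0.509 (0.484 to 0.534). Like Socs3, it was among the leading genes of cluster 0. Myc (0.486), Ehhadh (0.523) and Fmo1 (0.547) were lower as well, and all 6 stayed past 1.5-fold lower in each of the 11 alternatives. Ccnd2, the cyclin D2 gene, had 479 CPM and 406 CPM, a ratio of 0.848 (0.834 to 0.862), and Ccnd1 at 81.0 CPM and 90.8 CPM, a ratio of 1.12 (1.08 to 1.16).

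**Figure D3:**
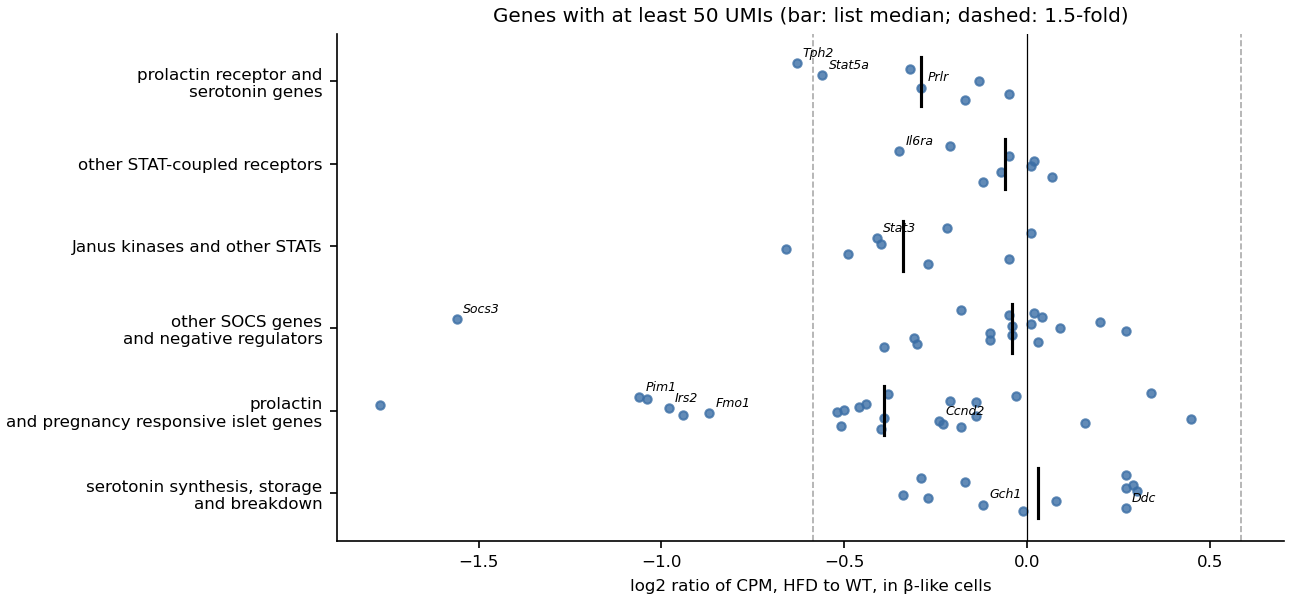
Log2 ratio of CPM (HFD to WT) in β-like cells for each gene with at least 50 UMIs, 1 row per gene list, with the list median as a bar and 1.5-fold as dashed lines. The pregnancy responsive list has 6 genes past the lower line, Socs3 lies at -1.56, and the serotonin list lies around 0.

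Prlr and its targets also varied across the β-like clusters. Cluster 6 (320 WT and 4 HFD cells) had the highest Prlr level, at 303 CPM (293 to 313), and among the lowest levels of the targets, with Socs2 at 13.1 CPM and Cish at 5.98 CPM. Cluster 1 (323 WT and 14 HFD cells), led by interferon and metallothionein genes, had Prlr at 230 CPM, Socs2 at 39.1 CPM (35.2 to 43.3) and Cish at 12.7 CPM. Among the HFD clusters, cluster 8, led by Dapl1 and Pappa2, had Prlr at 177 CPM, Socs2 at 13.3 CPM and Cish at 5.96 CPM. Cluster 17, led by Hbb-bs and Nupr1 and shallower than the other β-like clusters with a median of 8486 UMIs, had Prlr at 241 CPM, Socs2 at 30.5 CPM and Cish at 16.6 CPM. Prlr and the targets thus ran together between these 2 HFD clusters and apart between these 2 WT clusters. Clusters 18 and 21, both mostly HFD, lay between clusters 8 and 17 for Prlr and both targets. They had Prlr at 186 CPM and 194 CPM, Socs2 at 16.7 CPM and 17.7 CPM, and Cish at 7.94 CPM and 8.12 CPM. The HFD clusters 12, 13 and 19 had Prlr at 222 CPM, 218 CPM and 218 CPM. Their Socs2 levels were 18.8 CPM, 26.4 CPM and 15.7 CPM, and their Cish levels 8.57 CPM, 13.2 CPM and 7.55 CPM. The targets thus differed among these clusters at similar Prlr levels. Cluster 0, the largest WT cluster, lay between clusters 6 and 1, with Prlr at 251 CPM, Socs2 at 21.1 CPM and Cish at 12.4 CPM. Ghr stayed between 56.7 CPM and 68.8 CPM in all 10 clusters. Prlr levels of the WT clusters (230 CPM to 303 CPM) and of the HFD clusters (177 CPM to 241 CPM) overlapped.

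**Figure D4:**
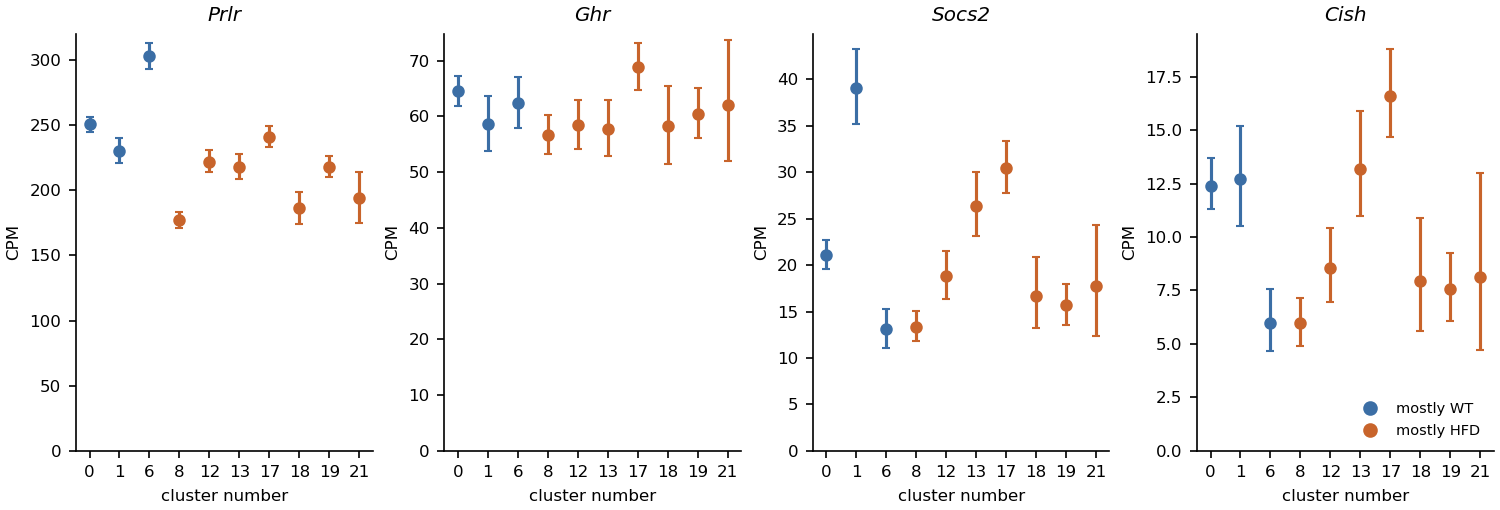
Levels in CPM of Prlr, Ghr, Socs2 and Cish in the 10 β-like clusters, numbered on the horizontal axis, with exact Poisson 95% intervals, in blue where most cells are WT and in orange where most are HFD. Prlr is highest and both targets are among the lowest in cluster 6, while Ghr is nearly level.

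In single β-like cells thinned to 2000 UMIs, the targets were found at similar shares in cells with and without Prlr. Socs2 was found in 4.25% of the 659 WT cells with a Prlr UMI and in 3.75% of the 986 cells without one, and in 4.06% and 3.79% in HFD. Cish was found in 1.82% and 2.74% in WT and in 2.33% and 2.25% in HFD, and Ghr in 13.1% and 10.8% in WT and in 12.5% and 12.3% in HFD. The intervals overlapped in all 6 pairs, and also at 5000 UMIs per cell. At 2000 UMIs a cell held on average 0.515 Prlr UMIs in WT and 0.426 in HFD. Before thinning, 97.6% of WT and 87.3% of HFD β-like cells held one, so many cells without a Prlr UMI did hold its RNA. The overlap therefore cannot show whether receptor and targets vary together in single cells. Pairs without Prlr were not all alike. At 5000 UMIs in HFD, Socs2 was found in 15.5% of cells with a Cish UMI (11.4 to 20.4) and in 10.2% of those without (9.41 to 11.1). Cish was found in 6.69% of HFD cells with a Ghr UMI (5.44 to 8.12) and in 4.52% of those without (3.89 to 5.21). In WT at 5000 UMIs, the shares were 9.72% and 10.2% for Socs2 by Cish and 4.98% and 4.24% for Cish by Ghr, with overlapping intervals. At 2000 UMIs in HFD, the shares were 3.20% and 3.90% for Socs2 by Cish and 2.36% and 2.27% for Cish by Ghr, also with overlapping intervals. These 2 pairs were chosen from the pairs without Prlr after their values were seen, and cells of 1 library are not replicates. Before thinning, Cish reached 3 or more UMIs in 43 WT β-like cells, which held 24.2% of its UMIs there, and in 5 HFD β-like cells, which held 2.06%. The β-like cells were deeper in WT (median 30414 UMIs against 11801), so these counts cannot be read as a difference between the diets.

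In other classes, 7 pairs of a gene and a class had at least 50 UMIs over both libraries. The share of all genes past 1.5-fold was not computed in these classes, so a count of pairs is not a result about these genes. Of the 7 pairs, 2 were past 1.5-fold, both in duct-like cells (60 WT and 33 HFD cells). Socs2 was lower there in HFD, with 92 UMIs (89.5 CPM) against 8 UMIs (39.6 CPM), a ratio of 0.443 (0.186 to 0.910). Cish was higher, with 132 UMIs (128 CPM) against 43 UMIs (213 CPM), a ratio of 1.66 (1.15 to 2.36). With at most 15000 UMIs per cell the ratio of Socs2 was 0.666 (0.228 to 1.76, from 14 and 7 UMIs), an interval that includes 1, and that of Cish 1.81 (1.05 to 3.17). The ratios of the 2 targets thus lay on opposite sides of 1 in this class, that of Socs2 on few UMIs. T cell-like cells, of which WT had 13 and HFD 168, held Socs2 at 361 CPM (10 UMIs) and 12.3 CPM (4 UMIs) and Cish at 325 CPM (9 UMIs) and 52.5 CPM (17 UMIs). In endothelial-like cells the ratios were 0.835 (0.467 to 1.42) for Socs2 and 1.13 (0.632 to 1.94) for Cish, and in pericyte-like cells 0.998 (0.705 to 1.40) and 1.42 (0.976 to 2.04), so no difference was detectable at this depth.

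Markers of other cells also moved with the libraries in β-like cells. All 5 erythroid markers were higher in HFD, with a sum of 1.07 CPM and 37.5 CPM, and so were all 5 acinar markers, with a sum of 117 CPM and 389 CPM. Of the 6 α markers 1 was higher, and their sum was 1003 CPM and 1776 CPM, while 0 of the 4 δ markers were higher, with a sum of 81.0 CPM and 31.0 CPM. The endothelial, pericyte and T cell lists each summed to at most 3.70 CPM. The 9 β markers were all detected and summed to 659479 CPM and 642125 CPM. The part of these differences in the ratios above was not tested.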

How the data were processed

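Islet cells of 1 WT and 1 HFD library were measured with the 3' v3 chemistry of 10x Genomics. The authors deposited raw UMI counts per gene and barcode, made with Cell Ranger (v3.0.2) and mm10 per the submitters' processing notes. From these counts, barcodes with at least 500 genes and at most 20% mitochondrial UMIs were kept. Doublets were scored with Scrublet in scanpy (v1.11.5), whose own threshold took only 12 WT barcodes and 0 HFD barcodes and was set aside. The highest scores, 0.8% per 1000 barcodes, were left out instead (121 WT and 641 HFD barcodes). UMIs were scaled to 10000 per cell, the square root was taken, and Leiden clusters (igraph v0.11.9, resolution 1) were found on 15 neighbours in 50 components of 2000 variable genes, which excluded hormones, the 8 genes and the pathway lists. Clusters with under 40% of insulin UMIs were clustered again. Names came from 18 marker lists, and the naming rules were adjusted after clusters had been seen. Unnamed clusters held 375 WT and 437 HFD cells. UMIs were summed per class with exact Poisson, Clopper-Pearson and conditional ratio intervals, which do not cover the spread between mice. A count of 0 was given the limit of 3 counts. Size was called at 1.5-fold with at least 50 UMIs, which sets the limit of depth. Named genes were the 8 genes and, from each list, those past 1.5-fold (at most 6) and the 2 of highest level among the rest, with 5 genes most like Prlr and Ghr. Genes, lists and rules were chosen with earlier results of these data known. The interval code was tested on simulated data. TMM factors came from edgeR (v4.0.16). Some genes that met these rules are not reported here.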

Additional observations from a re-analysis of the deposited data

Results flagged for a closer look

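Cish in duct-like cells was higher in HFD (ratio 1.66, interval 1.15 to 2.36), while in β-like cells it was lower (0.892, 0.80 to 0.994). Socs2 in fibroblast-like cells was higher in HFD (ratio 3.07, interval 1.06 to 8.01, from 15 WT and 7 HFD UMIs), while in β-like cells it was lower (0.914, 0.847 to 0.986). This direction in fibroblast-like cells turned with at least 1000 genes per cell, where the ratio was 0.735 (0.0175 to 4.78) on 1 HFD UMI, and with at most 10% mitochondrial UMIs it was 2.70 (0.858 to 7.36). Both were picked out because the direction was opposite in the 2 classes. The difference between classes was not tested, since each diet had 1 library.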

How the results depend on the processing

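No paired analysis was possible because each group held 1 library. Of 11 alternatives for β-like cells, the last (all insulin-rich clusters, unnamed ones included) was chosen after seeing the data. Prlr was lower in HFD in all 11, with ratios of 0.889 with at most 15000 UMIs per cell, 0.760 when scaled without hormone and mitochondrial genes, 0.711 when centred on the median gene, 0.838 as a mean over cells, and 0.814 to 0.830 in the other 7. Ghr (0.785 to 0.967), Socs2 (0.722 to 0.934), Stat5a (0.356 to 0.690), Stat5b (0.475 to 0.814) and Tph2 (0.286 to 0.907) were also lower in all 11. Cish was lower in 10 of 11 and reversed to 1.46 with at most 15000 UMIs. The count of the 8 genes past 1.5-fold was 1, and 2 with at most 15000 UMIs, scaling without hormone genes, median centring or a mean over cells, and 0 with all insulin-rich clusters. Where the count was 1, the gene was Tph2 in the main setting, and Stat5a with doublets kept or in cells of 10000 to 30000 UMIs. Genes of the pathway lists past 1.5-fold numbered 8, and 34 with at most 15000 UMIs, 17 with median centring and 18 in cells of 10000 to 30000 UMIs. Over all genes they numbered 1015, and 3429 with at most 15000 UMIs, 1601 in cells of 10000 to 30000 UMIs, 2024 with a minimum of 10 UMIs and 324 with a minimum of 500. Among all genes the share past 1.5-fold lower moved from 4.58% to 10.0% with median centring. The β-like to δ-like ratio of Prlr in WT was 11.9, and 47.5 with at most 10% mitochondrial UMIs. Prlr was found in 70.9% of WT and 63.7% of HFD β-like cells at 5000 UMIs, and in 97.6% and 87.3% without thinning. The cause of these changes was not tested, except that deeper cells show more UMIs by construction. Depth limits the classes outside β-like cells, of which 7 pairs of gene and class reached 50 UMIs.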
